A study of Arabidopsis thaliana with 12 samples.

Results

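The comparison was latrunculin B against DMSO in Arabidopsis thaliana rosette leaves labelled sid2. It was made with the 3 libraries titled sid2 with latrunculin B and the 3 titled sid2 with DMSO, chosen by their titles alone, which are 6 of the 12 libraries of the series. The leaves came from 4-week-old plants kept at 22 °C in a day of 10 h light and 14 h dark. They received 1 µM latrunculin B by infiltration, or DMSO at 0.01% as the solvent control, for 24 h. The other 6 libraries, Col-0 wild type (WT) with the same treatments, were used for the shared estimate of spread and for the difference between genotypes. The labels name neither the sid2 allele nor the plants behind each library, so the p-values cover only the variation among these samples, and that variation may be technical. Whole leaves hold mesophyll, epidermis, guard cells and veins, and no measure of actin filaments or of salicylic acid (SA) was analysed here.

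Latrunculin B binds actin monomers and keeps them out of filaments. Actin filaments carry vesicles and organelles in plant cells, and immune receptors, callose synthases and secreted antimicrobial compounds travel on them. SID2 is another name for ICS1, the gene of the isochorismate synthase that opens the main route to SA in this species. Mutants of this gene are known for making little SA after infection, while the routes to camalexin, ethylene and jasmonate do not need it.

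The 6 libraries held 14506953 to 21046179 estimated reads, and 16577 to 17568 genes per library reached 10 reads. Every treated library was deeper than every control, with 18317478 to 21046179 reads under latrunculin B against 14506953 to 17982942 with DMSO. Genes that reached 10 reads numbered 17394 to 17568 against 16577 to 16965. The part of depth in rises from few or no control reads was not tested. Levels are given as CPM (read counts scaled to a common library total, after TMM scaling) with the SD over 3 libraries. Changes are log2 fold changes (latrunculin B minus DMSO) from the quasi-likelihood test of edgeR, and a gene was called when its p, adjusted over all 18149 genes by Benjamini-Hochberg, was below 0.05. The transcripts of ICS1 (AT1G74710) were at 372, 371 and 365 CPM in DMSO replicates 1 to 3 and at 322, 299 and 385 CPM in latrunculin B replicates 1 to 3, and ICS1 was not called (log2 -0.14 ± 0.14 SE, adjusted p = 0.631). In WT they were at 21.6, 22.3 and 23.9 CPM with DMSO and at 111, 136 and 161 CPM with latrunculin B, so the sid2-labelled libraries lay above every WT library. Transcripts of a mutant gene can be made and counted, so these levels do not test the lesion, and the genotype rests on the labels. PR1, a marker gene of SA responses, had a mean of 0.160 ± 0.181 CPM in the DMSO group and 4.38 ± 2.98 CPM in the treated group of sid2-labelled leaves, and of 118 ± 37.1 and 4367 ± 812 CPM in WT. The leaf markers RBCS1A and RCA were among the most abundant genes in each library, and of 9 root markers PIN2, WER, COBL9 and PRP3 were at 0 in all 6. The 9 summed to 27.7 to 36.1 CPM with DMSO and 23.8 to 28.1 CPM with latrunculin B, and the remaining 5 hold these reads.

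In the sid2-labelled leaves 640 genes rose, 3.53% of the 18149 tested, and 219 fell, 1.21%, together 4.73%. These counts depended on the method: 1346 and 127 with library size alone as the scaling, 1082 and 525 with DESeq2, 975 and 107 with limma, and 270 and 88 with the 6 sid2 libraries alone. The rises were larger than the falls. Their median was 2.40-fold against 1.76-fold, and 174 rises but 16 falls passed a log2 change of 2. The CPM of the treated and control libraries did not overlap for 638 of the genes that rose and 214 of those that fell, against 25.1% of all genes tested. The median log2 change of all genes was -0.004.

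**Figure D1:**
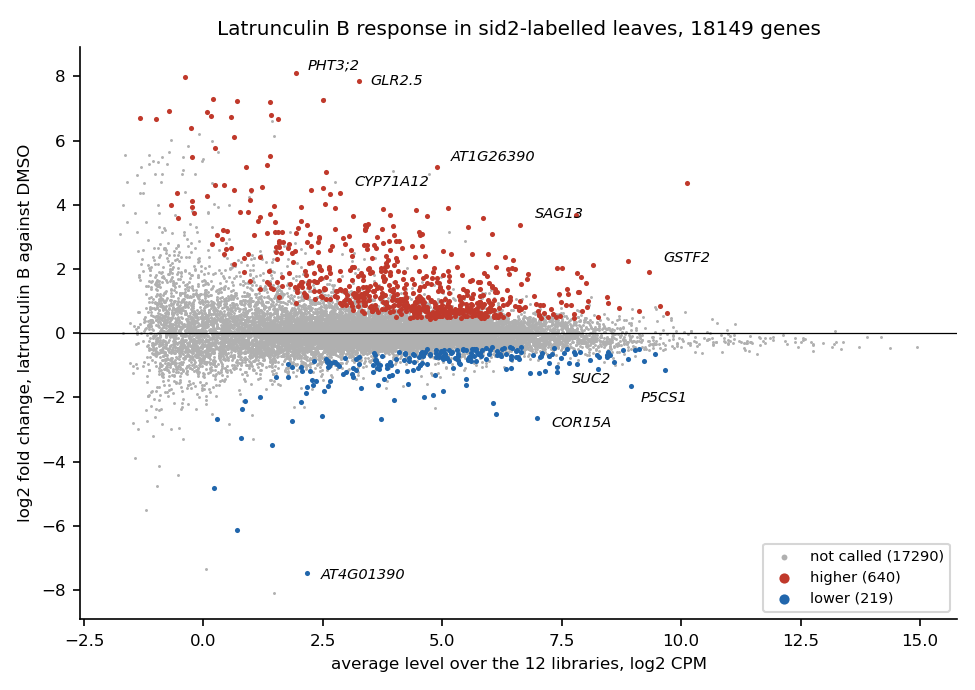
Each point is 1 of the 18149 genes tested, with its average level on the x axis (log2 CPM over the 12 libraries) and its log2 fold change in sid2-labelled leaves on the y axis. The 640 genes that rose (red) reach higher absolute values than the 219 that fell (blue), and 10 genes of the text are named.

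One control library, labelled DMSO replicate 3, lay between the groups. On the first principal component of the 6 libraries (45.7% of the variance) DMSO replicate 3 was at 2.75, DMSO replicates 1 and 2 at 45.3 and 71.0, and the latrunculin B libraries from -41.4 to -36.2. Its root mean square log2 difference was 0.469 to the other DMSO libraries and 0.442 to the mean of the treated ones. Whether its label is right was not tested, and each fold and count that includes it carries that doubt. It was the highest control library for 62.0% of the genes that rose, against 37.2% of all genes, and the lowest for 60.3% of the genes that fell, against 34.3%. Without it 1009 genes rose and 463 fell. Without any one of the other 5 sid2-labelled libraries the counts were 308 to 390 and 56 to 106. Without each of the 6 in turn, 220 rises and 33 falls stayed called, and the genes described first in each paragraph below are mostly of this kind. The gene lists below and their members were chosen with earlier results of these data known, so their counts are descriptions. They stand beside the shares of all genes tested, 3.53% higher and 1.21% lower.

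**Figure D2:**
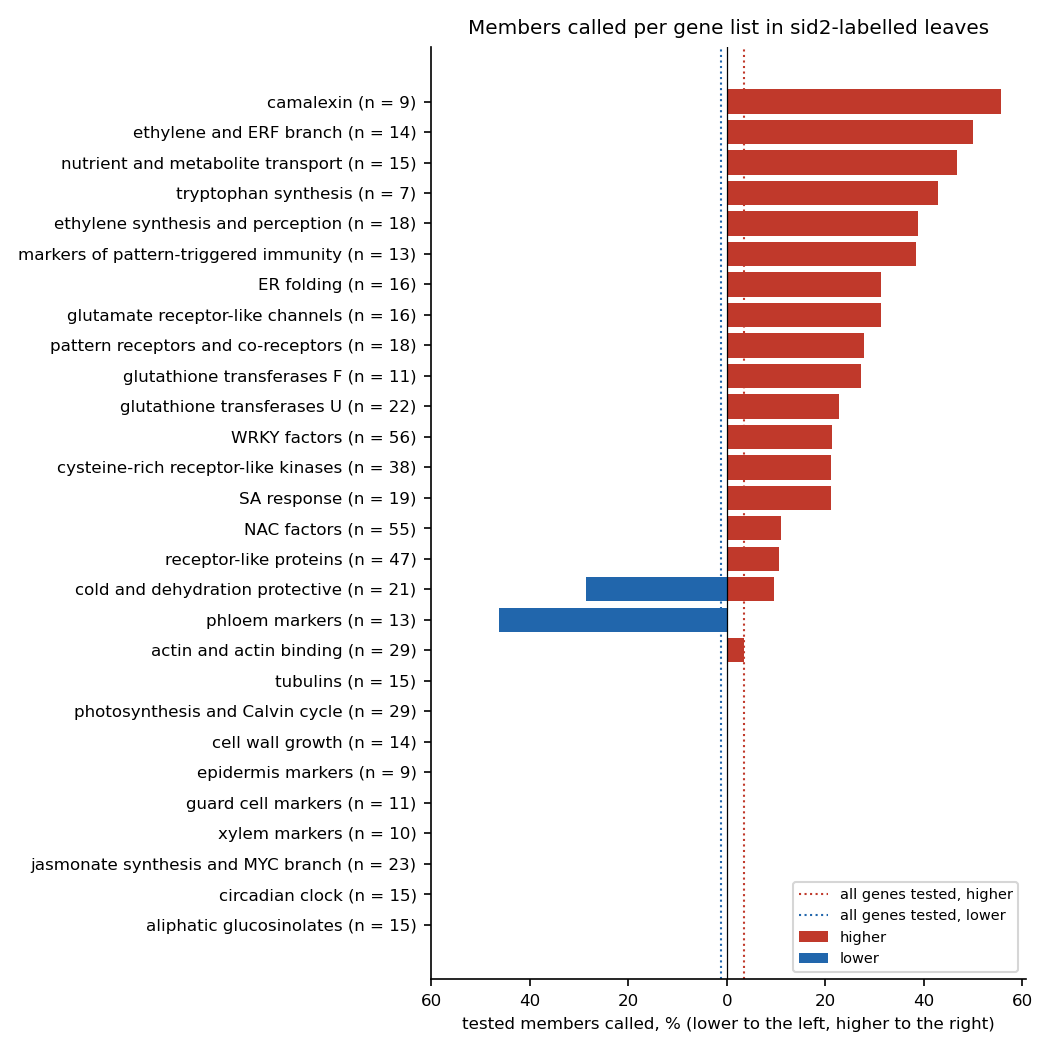
Bars give the percentage of tested members called higher (red, to the right) or lower (blue, to the left) in 28 gene lists, with n the number tested. Dotted lines mark all genes tested, 3.53% higher and 1.21% lower, and the longest bars belong to camalexin (5 of 9 higher) and to phloem markers (6 of 13 lower). Lists and members were chosen with earlier results of these data known, so a bar beyond its line is not independent evidence.

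Genes for camalexin, the indole phytoalexin of Arabidopsis, held some of the largest rises. CYP71A12 (AT2G30750), whose cytochrome P450 turns indole acetaldoxime into indole acetonitrile, was at 0.248, 0 and 2.57 CPM in DMSO replicates 1 to 3 and at 16.3, 23.3 and 19.2 CPM in latrunculin B replicates 1 to 3. Its neighbour CYP71A13 (AT2G30770), for an enzyme of the same step, was at 1.12, 0.231 and 4.07 CPM against 21.2, 25.7 and 18.9 CPM. PAD3 (CYP71B15, AT3G26830), for the enzyme of the last steps, was at 0.682, 0.694 and 6.14 CPM against 31.4, 27.0 and 36.1 CPM. In all 3 genes every treated library lay far above every control library, and DMSO replicate 3 was the highest control. The rises were 20.8-fold (log2 4.38 ± 0.68 SE, adjusted p = 0.00305), 12.1-fold (3.59 ± 0.64, 0.00691) and 12.6-fold (3.66 ± 0.58, 0.00337), and without DMSO replicate 3 their log2 values were 7.10, 4.93 and 5.50. The glutathione transferase gene GSTF6 (AT1G02930), placed by some work in the same pathway, rose 4.41-fold, from 75.5 ± 45.0 to 333 ± 25.5 CPM. WRKY33 (AT2G38470), a transcription factor that activates these genes, rose 2.25-fold. Its adjusted p of 0.0446 went above 0.05 without any one of 10 of the 12 libraries, all but sid2 DMSO replicate 1 and WT DMSO replicate 3 (up to 0.168), and without DMSO replicate 1 its log2 rise was 1.76 in place of 1.17.

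Of 9 camalexin genes 5 rose and none fell, with a list median of 2.14 on the log2 scale. The 4 that did not pass were CYP79B2 (log2 0.74), CYP79B3 (-0.44), GGP1 (-0.14) and MYB122 (3.16). Of 7 genes of the synthesis of tryptophan, the precursor, 3 rose: TSA1 1.76-fold, ASB1 1.77-fold and ASA1 1.86-fold (5 of the 7 with library size alone), which encode subunits of tryptophan synthase and anthranilate synthase. Each of these 3 calls ended without latrunculin B replicate 1 or 3 or DMSO replicate 1 or 2, and those of ASB1 and ASA1 also without latrunculin B replicate 2, WT latrunculin B replicate 2 or WT DMSO replicate 2 (adjusted p up to 0.0753, 0.149 and 0.155). The call of ASB1 further ended without WT latrunculin B replicate 1 or 3 and that of ASA1 without WT DMSO replicate 1. AT1G26390, for an FAD-binding protein of the berberine bridge family, went from 0, 0.540 and 3.71 CPM to 39.8, 48.5 and 61.8 CPM and rose 35.9-fold. Its log2 rise of 5.16 was 4.53 without DMSO replicate 1 and 7.64 without DMSO replicate 3. CYP71A12 and CYP71A13 lie side by side and are near copies, as are GSTF6 and GSTF7 (AT1G02920), which rose 4.10-fold, so the split of reads within each pair is uncertain.

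The 300 bases before the starts of CYP71A12 (chr2:13101372-13101671, minus strand) and CYP71A13 (chr2:13111989-13112288, minus strand) are shown because these genes rose together and each window holds 2 copies of the W-box core, which is only part of the site bound by WRKY factors. They were read from the TAIR10.1 genome of RefSeq, 5′ to 3′ on the gene's strand, with TTGAC or its reverse complement GTCAA in capitals.
CYP71A12: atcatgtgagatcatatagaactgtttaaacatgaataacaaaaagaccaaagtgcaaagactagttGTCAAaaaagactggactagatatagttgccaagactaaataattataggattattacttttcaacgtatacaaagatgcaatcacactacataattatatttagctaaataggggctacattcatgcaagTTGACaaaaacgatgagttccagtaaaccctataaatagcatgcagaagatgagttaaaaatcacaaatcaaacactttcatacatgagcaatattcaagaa
CYP71A13: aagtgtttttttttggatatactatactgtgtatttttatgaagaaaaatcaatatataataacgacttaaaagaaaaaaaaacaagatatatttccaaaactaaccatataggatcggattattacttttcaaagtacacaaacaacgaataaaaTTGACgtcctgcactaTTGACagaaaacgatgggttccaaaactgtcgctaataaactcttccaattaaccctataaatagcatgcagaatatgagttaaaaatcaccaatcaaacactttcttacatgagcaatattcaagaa
The 2 copies start 233 and 102 bases before the gene start in CYP71A12 and 144 and 128 bases before it in CYP71A13. These letters are frequent: 50.2% of the windows of tested genes hold them on either strand, 65.5% of those of the 640 genes that rose (419 windows) and 42.9% of those of the genes that fell. The window of PAD3 holds none. A match describes letters and is not evidence of binding.

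Some receptor and receptor kinase genes rose in several families, beside 3.53% of all genes tested. Of 38 tested cysteine-rich receptor-like kinase genes, whose products sit in the plasma membrane, 8 rose, 5 without latrunculin B replicate 1 or 3 or DMSO replicate 2 and 10 without DMSO replicate 3. CRK13 (AT4G23210) was at 17.7, 14.3 and 24.8 CPM with DMSO and at 47.0, 52.6 and 69.4 CPM with latrunculin B, a rise of 2.97-fold (log2 1.57 ± 0.22, adjusted p = 0.00175). CRK38 rose 3.99-fold, CRK7 3.02-fold, CRK36 2.58-fold and CRK9 (AT4G23170) 1.84-fold, and none of these 5 calls depended on a single library. CRK5, CRK20 and CRK2 rose 1.68-fold, 6.40-fold and 1.48-fold, with calls that ended without latrunculin B replicate 1 or 3 or DMSO replicate 2, those of CRK5 and CRK20 also without DMSO replicate 1 and that of CRK2 without latrunculin B replicate 2, DMSO replicate 3, WT latrunculin B replicate 1 or 2 or WT DMSO replicate 2 (adjusted p up to 0.128, 0.0881 and 0.134). Without DMSO replicate 3 the log2 rise of CRK20 was 3.59 in place of 2.68. Several of these kinases lie in 1 tandem cluster on chromosome 4, where reads of near copies are uncertain. Of 47 receptor-like protein genes 5 rose, and 8 with library size alone. The median log2 change of the 47 was 0.32, 15 had a negative sign, and 2 calls held without each library in turn. RLP20 (AT2G25440) stood at 0.558, 1.00 and 0.856 CPM in the controls and at 5.78, 5.91 and 7.48 CPM in the treated libraries, a rise of 7.98-fold (adjusted p = 0.000644), and RLP40 rose 5.30-fold. RLP53, RLP38 and RLP7 rose 3.79-fold, 1.79-fold and 3.76-fold with calls that ended without latrunculin B replicate 2, for RLP53 and RLP7 also without DMSO replicate 1, for RLP38 without latrunculin B replicate 1, for RLP7 without latrunculin B replicate 3 or WT latrunculin B replicate 2, and for RLP38 and RLP7 without DMSO replicate 2 (adjusted p up to 0.0683, 0.0923 and 0.118). Without DMSO replicate 3 the log2 rise of RLP7 was 2.50 in place of 1.91. The wall-associated kinase gene WAK3 (AT1G21240) rose 2.77-fold and WAK1 1.60-fold, of 9 tested (5 called with library size alone), WAK1 not without latrunculin B replicate 1 or 3 or DMSO replicate 2 (up to 0.0689).

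Channels and pattern receptors gave smaller or less stable calls. Of 16 glutamate receptor-like channel genes 5 rose. GLR2.5 (AT5G11210) had no read in any control library and 1.62, 1.63 and 1.53 CPM in the treated ones, at least 22.9-fold higher against a floor of 3 reads over the control group. GLR2.7 rose 1.46-fold, GLR2.8 4.16-fold, GLR2.9 8.89-fold and GLR1.2 6.30-fold, with calls that ended without DMSO replicate 1 (GLR2.8, GLR2.9, GLR1.2), DMSO replicate 2 (GLR2.7, GLR2.8, GLR2.9), latrunculin B replicate 3 (GLR2.8, GLR2.9, GLR1.2), replicate 1 (GLR2.7, GLR1.2) or replicate 2 (GLR2.8) (adjusted p up to 0.0575, 0.0767, 0.0726 and 0.0853). Without DMSO replicate 3 the log2 rise of GLR1.2 was 3.80 in place of 2.65. Among 18 genes of pattern receptors and their partners 5 rose: the chitin receptor gene LYK5 (2.37-fold), LORE for the receptor of bacterial hydroxy fatty acids (2.96-fold), the cytoplasmic kinase genes BIK1 (2.36-fold) and PBL1 (1.56-fold), and BIR1 (1.86-fold). All 18 had a positive log2 change, with a median of 0.54, but none of the 5 calls held without latrunculin B replicate 1. That of LYK5 also ended without replicate 2, and the other 4 without any one of the libraries other than DMSO replicate 3. In turn 7 genes were called without DMSO replicate 3 and 8 with library size alone, and the largest adjusted p values were 0.0646, 0.0693, 0.0779, 0.0924 and 0.0754 in the order named. The kinase kinase gene MKK2 (AT4G29810) rose 1.95-fold, from 24.6 ± 2.84 to 47.9 ± 3.92 CPM, in each of these fits.

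Markers of pattern-triggered immunity rose in 5 of 13 cases. NHL10 (AT2G35980) was at 1.05, 0.154 and 2.997 CPM with DMSO and at 17.7, 14.3 and 30.9 CPM with latrunculin B, and FRK1 (AT2G19190), a receptor kinase gene widely used as a readout, was at 0.558, 0.231 and 3.14 CPM against 9.41, 11.1 and 18.4 CPM. Their log2 rises of 3.89 and 3.30 were 5.01 and 4.95 without DMSO replicate 3, the highest control in both. The callose synthase gene PMR4 rose 1.83-fold, MLO12 3.72-fold and PEN1, for a syntaxin of the plasma membrane, 1.86-fold. The vesicle protein gene VAMP722, a partner of PEN1, rose 1.64-fold. These last 4 calls ended without DMSO replicate 1 or latrunculin B replicate 3, those of MLO12, PEN1 and VAMP722 also without latrunculin B replicate 1 or 2, and those of PMR4, PEN1 and VAMP722 without DMSO replicate 2 (adjusted p up to 0.062, 0.0714, 0.107 and 0.108).

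**Figure D3:**
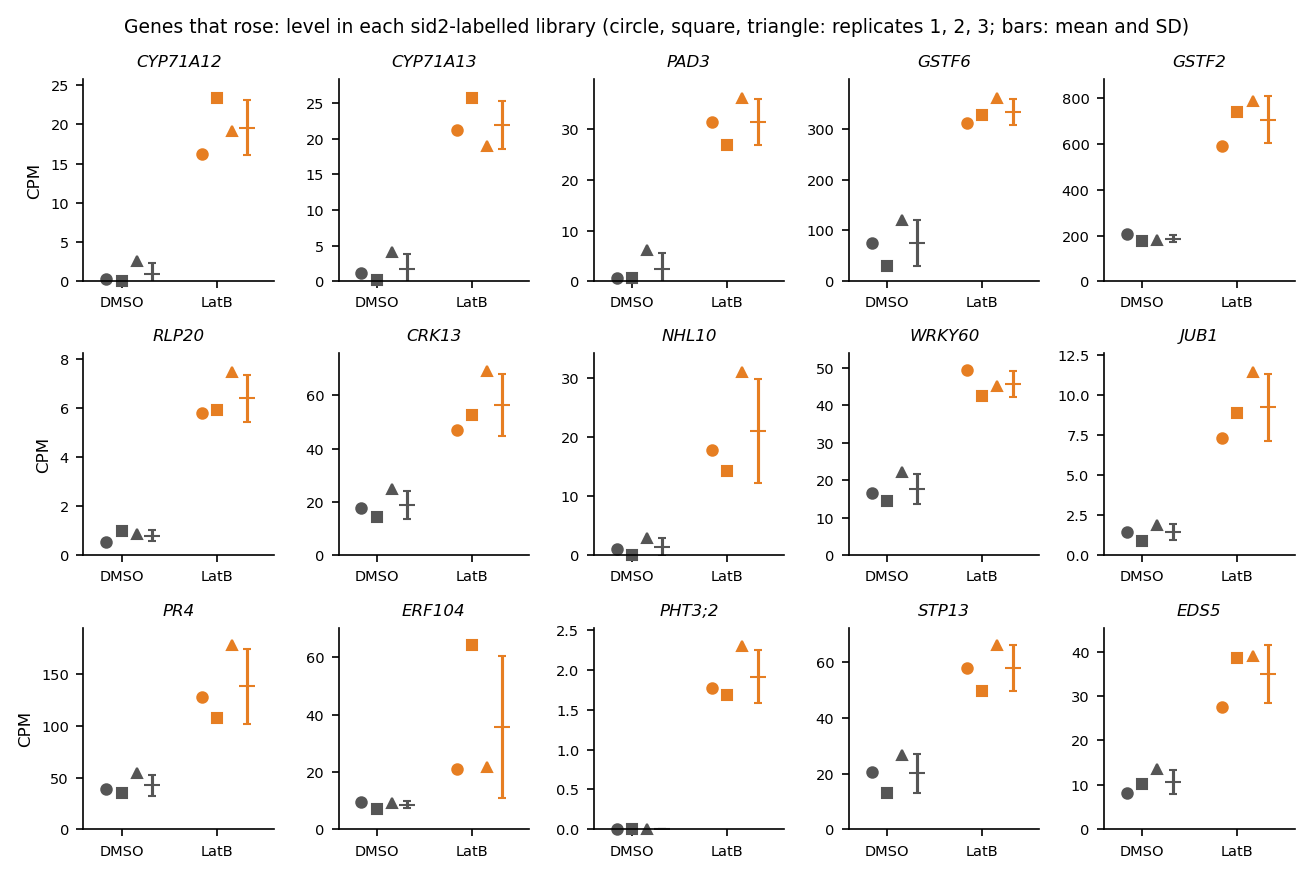
Level in CPM of 15 genes that rose, by library: circles, squares and triangles are replicates 1, 2 and 3, grey for DMSO and orange for latrunculin B, with the mean and SD at the right of each group (cut off at 0). In every panel the 3 treated libraries lie above the 3 controls, and in CYP71A12, CYP71A13 and PAD3 DMSO replicate 3 is the highest control.

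WRKY and NAC transcription factor genes rose in part. Of 56 tested WRKY genes 12 rose and none fell, with a median log2 change of 0.86, beside 3.53% of all genes that rose. The count was 6 without latrunculin B replicate 1 or DMSO replicate 2, and 14 without DMSO replicate 3. WRKY60 (AT2G25000) was at 16.5, 14.4 and 22.2 CPM against 49.4, 42.4 and 45.1 CPM (log2 1.36 ± 0.16, adjusted p = 0.000608), and WRKY47 and WRKY8 rose 2.72-fold and 6.57-fold. WRKY55 rose 8.66-fold and WRKY72 (AT5G15130) had 3 reads over the control libraries, a ratio of the treated mean to the pooled control reads per depth of 25.8 with a counting interval of 8.83 to 125. WRKY63 (ABO3, AT1G66600) had none and was at least 10.1-fold higher. Without DMSO replicate 3 the log2 rises of WRKY55 and WRKY72 were 3.78 and 8.04, and without DMSO replicate 1 that of WRKY72 was 3.94. WRKY40 and WRKY18 rose 3.25-fold and 1.98-fold with calls that ended without latrunculin B replicate 1 or 2 or DMSO replicate 1 or 2, and for WRKY18 also without latrunculin B replicate 3, any WT latrunculin B replicate or WT DMSO replicate 2 (adjusted p up to 0.114 and 0.132).

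Of 55 NAC genes 6 rose, beside 3.53% of all genes tested. The count was 4 to 9 with 1 sid2-labelled library left out and 13 with library size alone. JUB1 (AT2G43000), a regulator of leaf longevity, rose 6.31-fold, from 1.45 ± 0.502 to 9.23 ± 2.08 CPM (log2 2.66 ± 0.27, adjusted p = 0.000357), the smallest adjusted p of the genes described here. NAC003 rose 3.24-fold, and ANAC087, NAC102 and NAC004 rose 7.20-fold, 2.19-fold and 11.4-fold in the fit, NAC004 from 3 control reads (the same kind of ratio 12.4, counting interval 4.23 to 59.9). The calls of ANAC087 and NAC004 ended without DMSO replicate 1 (adjusted p = 0.052 for each) and that of NAC102 without latrunculin B replicate 1 (0.0516). Without DMSO replicate 3 the log2 rise of ANAC087 was 3.93, and without DMSO replicate 2 that of NAC004 was 4.45. MYB50 rose 4.22-fold, the only one of 52 tested MYB genes, a share below the 3.53% of all genes. The senescence marker SAG13 (AT2G29350) rose 10.4-fold, from 3.97, 1.54 and 17.7 CPM to 81.8, 74.5 and 84.5 CPM, and its log2 rise of 3.37 was 4.83 without DMSO replicate 3.

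A minority of the genes in the lists around SA rose, beside 3.53% of all genes. The genes that rose were 1 of 7 genes of SA synthesis and export, 2 of 9 of the EDS1 node and its helpers and 4 of 19 SA response genes, with median log2 changes of 0.65, 0.39 and 0.82. Shares that rest on 1 or 2 genes cannot be set against the share of all genes. With library size alone 3 of the 7 were called higher. In the list of SA synthesis and export EDS5 (AT4G39030), for the chloroplast exporter of the isochorismate route, rose from 8.24, 10.3 and 13.6 CPM to 27.4, 38.6 and 39.0 CPM (log2 1.71 ± 0.23, adjusted p = 0.00143). ICS2 (AT1G18870), the second isochorismate synthase gene of the genome, was at 13.2, 12.9 and 7.49 CPM with DMSO and 2.45, 4.93 and 2.29 CPM with latrunculin B, and fell 3.47-fold (log2 -1.80 ± 0.31, adjusted p = 0.0065). The remaining 5 of the 7 genes did not pass, among them PBS3 (log2 0.90, adjusted p = 0.0722) and CBP60G (0.88, 0.0658). Of the 19 SA response genes 17 had a positive sign, and 4 were called, 2 without latrunculin B replicate 1 or DMSO replicate 2. PR1 was at 0.124, 0 and 0.357 CPM against 3.87, 1.68 and 7.59 CPM, a rise of 25.9-fold at a low level, with a log2 value of 4.69 that was 4.05 without latrunculin B replicate 3 and 5.86 without DMSO replicate 3. PNP-A, for a natriuretic-like peptide, rose 3.44-fold and ACD6, for a membrane regulator of defence, 1.79-fold, the latter not without latrunculin B replicate 1 or DMSO replicate 2 (adjusted p up to 0.067). The fourth was WRKY18, given above. The 2 called in the EDS1 node list, ALD1 and FMO1, whose enzymes make the mobile signal N-hydroxypipecolic acid, rose 9.90-fold and 9.58-fold. Their calls ended without latrunculin B replicate 1 or 3 or DMSO replicate 1 or 2, and for FMO1 also without latrunculin B replicate 2 (adjusted p up to 0.0707 and 0.0725). Their log2 rises of 3.31 and 3.26 were 2.70 and 2.63 without DMSO replicate 1 and 5.58 and 4.13 without DMSO replicate 3. EDS1 and PAD4, the core of the EDS1 node, had log2 changes of 0.09 and -0.01 and did not pass.

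Many genes of the ethylene branch of defence rose. Ethylene acts through ERF transcription factors, which switch on defensins such as PDF1.2 and the chitin-binding protein PR4. Of 14 tested genes 7 rose in the sid2-labelled leaves, with a median log2 change of 1.70, and the median in WT was 0.23. The count was 3 without DMSO replicate 2. PR4 (AT3G04720) was at 38.8, 35.3 and 54.3 CPM with DMSO and at 128, 108 and 179 CPM with latrunculin B (log2 1.69 ± 0.21, adjusted p = 0.000977). ORA59 (AT1G06160), the ERF factor that drives PDF1.2, had no control reads and 2.20, 0.597 and 2.46 CPM in the treated libraries, at least 25.2-fold higher. ERF104 (AT5G61600) was at 9.42, 7.25 and 9.06 CPM against 21.2, 64.2 and 21.6 CPM. Latrunculin B replicate 2 stood far above the other treated libraries, and without it the log2 rise of 2.05 was 1.32 (adjusted p still below 0.05). The relatives ERF5 and ERF105 rose 4.06-fold and 4.21-fold. Replicate 2 was again the highest, both calls ended without it or without DMSO replicate 2, that of ERF5 also without latrunculin B replicate 1 and that of ERF105 without DMSO replicate 1 (adjusted p up to 0.102 and 0.161), and ERF105 then had a log2 value of 1.23 in place of 2.07. ERF6 (AT4G17490) was at 12.1, 37.6 and 9.66 CPM with latrunculin B and did not pass (adjusted p = 0.0954).

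The defensin genes differed between copies. PDF1.2b (AT2G26020) was at 2.17, 1.31 and 0.856 CPM with DMSO and at 6.37, 3.74 and 14.8 CPM with latrunculin B, and rose 5.68-fold. PDF1.2c (AT5G44430) went from 0, 0.309 and 0.500 CPM to 6.76, 2.17 and 8.68 CPM and rose 22.0-fold. Replicate 3 was the highest treated library in both, and without it the log2 rise of PDF1.2b was 1.79 in place of 2.51. The call of PDF1.2b ended without latrunculin B replicate 3 or DMSO replicate 2 (adjusted p up to 0.0846), and that of PDF1.2c without latrunculin B replicate 1 or 3 or DMSO replicate 1 or 2 (up to 0.0808). The log2 rise of PDF1.2c, 4.46, was 3.83 without DMSO replicate 1 and 5.31 without DMSO replicate 3. PDF1.2 itself (AT5G44420) did not pass, with 5.70, 5.48 and 17.4 CPM against 24.3, 12.2 and 24.3 CPM and overlapping groups (log2 1.09 ± 0.60, adjusted p = 0.325). The coding sequences are near copies, so the split of reads between them is uncertain.

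The windows of PDF1.2 (chr5:17907639-17907938, minus strand) and PDF1.2b (chr2:11088823-11089122, plus strand), read as above, are shown because each holds 1 GCC box, the letters bound by ERF factors, GCCGCC in capitals.
PDF1.2: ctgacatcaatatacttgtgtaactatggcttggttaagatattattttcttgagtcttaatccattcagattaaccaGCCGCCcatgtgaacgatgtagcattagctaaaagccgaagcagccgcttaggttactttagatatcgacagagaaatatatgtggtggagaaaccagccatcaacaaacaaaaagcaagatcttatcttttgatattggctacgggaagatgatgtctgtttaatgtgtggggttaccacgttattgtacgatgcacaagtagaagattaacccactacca
PDF1.2b: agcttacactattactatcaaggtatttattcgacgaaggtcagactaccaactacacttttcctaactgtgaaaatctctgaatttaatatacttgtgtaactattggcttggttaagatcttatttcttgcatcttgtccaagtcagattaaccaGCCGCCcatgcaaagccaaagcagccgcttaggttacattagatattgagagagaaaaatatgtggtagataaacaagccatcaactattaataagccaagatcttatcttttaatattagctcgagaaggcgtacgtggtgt
The box starts 222 bases before the gene start in PDF1.2 and 143 bases before it in PDF1.2b. Of the windows of tested genes 2.41% hold the box on either strand, of those of genes that rose 2.97%, and of those of genes that fell 3.69%. The window of PDF1.2c holds none.

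Genes of ethylene synthesis and perception rose in 7 of 18 cases. ACS6, for the synthase of the precursor ACC, rose 2.16-fold, and ACO4, for an oxidase that releases ethylene, 2.36-fold. EBF1 and EBF2, for F-box proteins that degrade the regulator EIN3, rose 1.58-fold and 2.17-fold, the receptor gene ETR2 3.10-fold and the kinase gene CTR1 1.55-fold. ACS6 was at 130 CPM in latrunculin B replicate 2 and at 59.1 and 58.8 CPM in the other two. None of these 6 calls held in every fit with 1 library left out. Those of EBF1, EBF2, ACO4, CTR1 and ETR2 ended without latrunculin B replicate 3, those of ACS6, ACO4, CTR1 and ETR2 without DMSO replicate 1, and those of all but EBF2 without DMSO replicate 2. Those of EBF1, EBF2, CTR1 and ETR2 also ended without latrunculin B replicate 1, that of ACO4 without replicate 2, and that of ETR2 without DMSO replicate 3, any WT latrunculin B replicate or WT DMSO replicate 2 (adjusted p up to 0.0749 for ACS6, 0.0749 for ACO4, 0.11 for EBF1, 0.0707 for EBF2, 0.156 for ETR2 and 0.105 for CTR1). The count was 1 without latrunculin B replicate 3 or DMSO replicate 2.

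Transporters of sugars, amino acids and phosphate formed a stable group, with 7 of 15 genes higher and 6 of these calls kept without any 1 library. PHT3;2 (AT3G48850), a mitochondrial phosphate carrier gene, had no read in the 3 controls and 1.76, 1.68 and 2.29 CPM in the treated libraries, at least 27.5-fold higher. The hexose importer genes STP13 (AT5G26340) and STP4 (AT3G19930) rose 2.88-fold and 1.93-fold, STP13 from 20.5, 13.0 and 26.8 CPM to 58.0, 49.7 and 66.3 CPM. CWINV1, for a cell wall invertase that supplies hexoses, rose 4.06-fold, and its log2 rise of 2.02 was 2.98 without DMSO replicate 3, where it stood at 41.3 CPM against 12.3 and 9.26 CPM in the other controls. The amino acid transporter genes LHT1 and CAT1 rose 3.57-fold and 3.80-fold. PHT1;4, a phosphate importer gene of the plasma membrane, rose 6.95-fold, with a call that ended without latrunculin B replicate 2 or 3 or DMSO replicate 1 or 2 (adjusted p up to 0.0886) and a log2 value of 4.02 in place of 2.80 without DMSO replicate 3.

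Genes of detoxification and protein folding rose in part. In the list of chemical detoxification 3 of 17 tested genes rose, and 0 to 2 with 1 sid2-labelled library left out. None of these 3 calls held without each library in turn. Glutathione transferases were counted in lists of their own. The glutathione transferase gene GSTF2 (AT4G02520) was at 206, 176 and 179 CPM with DMSO and at 591, 741 and 787 CPM with latrunculin B, a rise of 3.78-fold (log2 1.92 ± 0.20, adjusted p = 0.000409) seen to a similar size without any library. Of 22 tested genes of the tau class 5 rose, GSTU10 6.73-fold, GSTU8 8.42-fold, GSTU11 7.79-fold, GSTU9 6.34-fold and GSTU4 6.14-fold. The calls of GSTU11, GSTU9 and GSTU4 ended without any one of the 5 libraries other than DMSO replicate 3, that of GSTU9 also without WT latrunculin B replicate 2 or 3 and that of GSTU4 without WT latrunculin B replicate 2 or WT DMSO replicate 2 (adjusted p up to 0.0937, 0.132 and 0.122), and without DMSO replicate 3 the log2 values of GSTU8, GSTU11 and GSTU4 were 5.21, 5.44 and 4.90 in place of 3.07, 2.96 and 2.62. F5H, for the hydroxylase of sinapate and syringyl lignin synthesis, rose 1.95-fold. F6'H1 (AT3G13610), for the first enzyme of the coumarin scopoletin, had no control reads and was at least 15.4-fold higher. Its call ended without latrunculin B replicate 2 or DMSO replicate 1 or 2 (adjusted p up to 0.0686), and its fitted log2 value of 7.26 was 6.55 without latrunculin B replicate 2.

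In the endoplasmic reticulum 5 of 16 folding genes rose, and 11 with library size alone. BIP2 (AT5G42020), a chaperone gene, rose from 141, 122 and 166 CPM to 237, 252 and 256 CPM (log2 0.80 ± 0.15, adjusted p = 0.00849). PDIL2-1 and PDIL1-2, for disulfide isomerases, rose 1.51-fold and 1.50-fold, the co-chaperone gene ERDJ3A 2.23-fold, and BZIP60, for the factor that switches such genes on, 1.80-fold. These 4 calls ended without latrunculin B replicate 2. Those of all but ERDJ3A also ended without DMSO replicate 2, all but PDIL2-1 without latrunculin B replicate 3, and ERDJ3A and BZIP60 without latrunculin B replicate 1, any WT latrunculin B replicate or WT DMSO replicate 2, with ERDJ3A also lost without DMSO replicate 1 or 3 and BZIP60 without WT DMSO replicate 1 (adjusted p up to 0.0541, 0.0641, 0.127 and 0.128).

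Genes of cold and dehydration protection were the list with the most falls besides the phloem markers. Of 21 tested genes 6 fell and 2 rose, with a median log2 change of -0.67, and 17 of the 21 had a negative sign. From 4 to 7 fell when 1 sid2-labelled library was left out. COR15A (AT2G42540), for a protein that protects chloroplast membranes in frozen or dry leaves, was at 269, 385 and 129 CPM with DMSO and at 33.6, 76.0 and 16.6 CPM with latrunculin B. Its neighbour COR15B (AT2G42530) was at 36.1, 49.2 and 21.3 CPM against 8.57, 8.46 and 8.02 CPM. KIN2 (AT5G15970), for a small hydrophilic protein, was at 62.3, 99.7 and 81.9 CPM against 26.5, 29.3 and 24.8 CPM. Treated and control libraries did not overlap in any of the 3, and in both COR15 genes DMSO replicate 3 was the control nearest to the treated libraries. The falls were 6.20-fold (log2 -2.63 ± 0.53, adjusted p = 0.0136), 4.25-fold (-2.09 ± 0.29, 0.00178) and 3.02-fold (-1.60 ± 0.18, 0.000549). The call of COR15A ended without latrunculin B replicate 1 (0.0649), and its log2 value was -3.37 without latrunculin B replicate 2.

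The dehydrin gene COR47 (AT1G20440) was at 268, 224 and 188 CPM with DMSO and at 110, 105 and 87.9 CPM with latrunculin B, a fall of 2.24-fold (log2 -1.16 ± 0.16, adjusted p = 0.00143). ERD14, for another dehydrin, fell 1.60-fold and KIN1 4.32-fold. The call of ERD14 ended without latrunculin B replicate 3 or DMSO replicate 1 (adjusted p up to 0.0603) and that of KIN1 without any latrunculin B replicate or DMSO replicate 2 (up to 0.0917). The zinc finger genes ZAT12 and ZAT10 rose 4.30-fold and 3.48-fold. ZAT12 had a log2 value of 2.76 in place of 2.11 without DMSO replicate 3, and ZAT10 was at 81.2 CPM in latrunculin B replicate 2 against 40.4 and 32.8 CPM in the other two, with a call that ended without it or DMSO replicate 2 (adjusted p up to 0.0646). CBF1, CBF2 and CBF3, for factors that bind the C-repeat, were at 2.55 CPM or less in every treated or control library. Their log2 changes of 0.30, -0.48 and 0.02 did not pass. COR15A and COR15B, and KIN1 and KIN2, are near copies that lie side by side, so the split of reads within each pair is uncertain.

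The windows of COR15A (chr2:17712331-17712630, minus strand) and KIN2 (chr5:5211419-5211718, plus strand), read as above, are shown as promoters of the group that fell. Capitals mark the C-repeat core CCGAC or its reverse complement GTCGG in COR15A, and in both the core of the abscisic acid response element (ABRE), ACGTG or its reverse complement CACGT.
COR15A: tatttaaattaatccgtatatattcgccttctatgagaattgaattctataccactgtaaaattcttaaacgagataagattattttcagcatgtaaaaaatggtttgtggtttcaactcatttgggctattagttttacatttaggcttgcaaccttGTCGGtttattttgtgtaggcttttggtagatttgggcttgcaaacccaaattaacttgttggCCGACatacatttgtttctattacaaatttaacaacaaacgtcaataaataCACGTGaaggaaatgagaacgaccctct
KIN2: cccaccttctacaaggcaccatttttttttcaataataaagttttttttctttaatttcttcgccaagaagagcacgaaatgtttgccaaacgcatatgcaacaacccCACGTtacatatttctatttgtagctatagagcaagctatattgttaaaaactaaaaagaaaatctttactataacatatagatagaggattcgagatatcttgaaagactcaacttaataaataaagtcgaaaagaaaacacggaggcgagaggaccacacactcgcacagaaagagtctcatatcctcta
COR15A holds 2 C-repeat cores, and its 2 ABRE matches overlap in 1 palindrome that starts 28 bases before the gene start. KIN2 holds 1 ABRE core and no C-repeat core. The window of COR15B holds 1 C-repeat core and no ABRE core, and that of COR47 holds neither. Those of KIN1 and ERD14 hold 1 ABRE core each and no C-repeat core. The ABRE core is in 26.2% of the windows of tested genes, in 39.6% of those of the genes that fell (86 of 217 windows) and in 25.8% of those of the genes that rose. The C-repeat core is in 15.3%, 15.7% and 13.1% of the same sets.

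Single genes tied to abscisic acid and water fell, each from a separate list. ABCG25 (AT1G71960), for an exporter of abscisic acid in the vasculature, fell from 12.3, 7.71 and 9.28 CPM to 4.46, 4.01 and 3.60 CPM (log2 -1.28 ± 0.23, adjusted p = 0.00821). P5CS1, for the main enzyme of proline synthesis under water deficit, fell 3.14-fold from 1129 ± 257 to 359.7 ± 125 CPM, ABF3, for a factor that binds the ABRE, 2.35-fold, and the aquaporin gene PIP2;2 (PIP2B, AT2G37170) 1.80-fold. The calls of P5CS1 and ABF3 ended without latrunculin B replicate 1 or 3 or DMSO replicate 1 (adjusted p up to 0.0733 and 0.0757), and that of PIP2;2 without latrunculin B replicate 3 (0.0503). ABF3 was the only one of 17 abscisic acid genes called, and 12 of the 17 had a negative sign. P5CS1 was the only one of 7 proline genes called. Of 12 plasma membrane aquaporin genes PIP2;2 fell and PIP1;5 rose, and of 27 ABC transporter genes of class G ABCG25 fell and ABCG42 rose 2.63-fold, with 3 higher with library size alone. Among all genes tested 3.53% rose and 1.21% fell, so single calls say little about these lists. PYL4, for an abscisic acid receptor and not in the list of 17, rose 2.64-fold, and it fell in WT (log2 1.40 against -0.74).

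**Figure D4:**
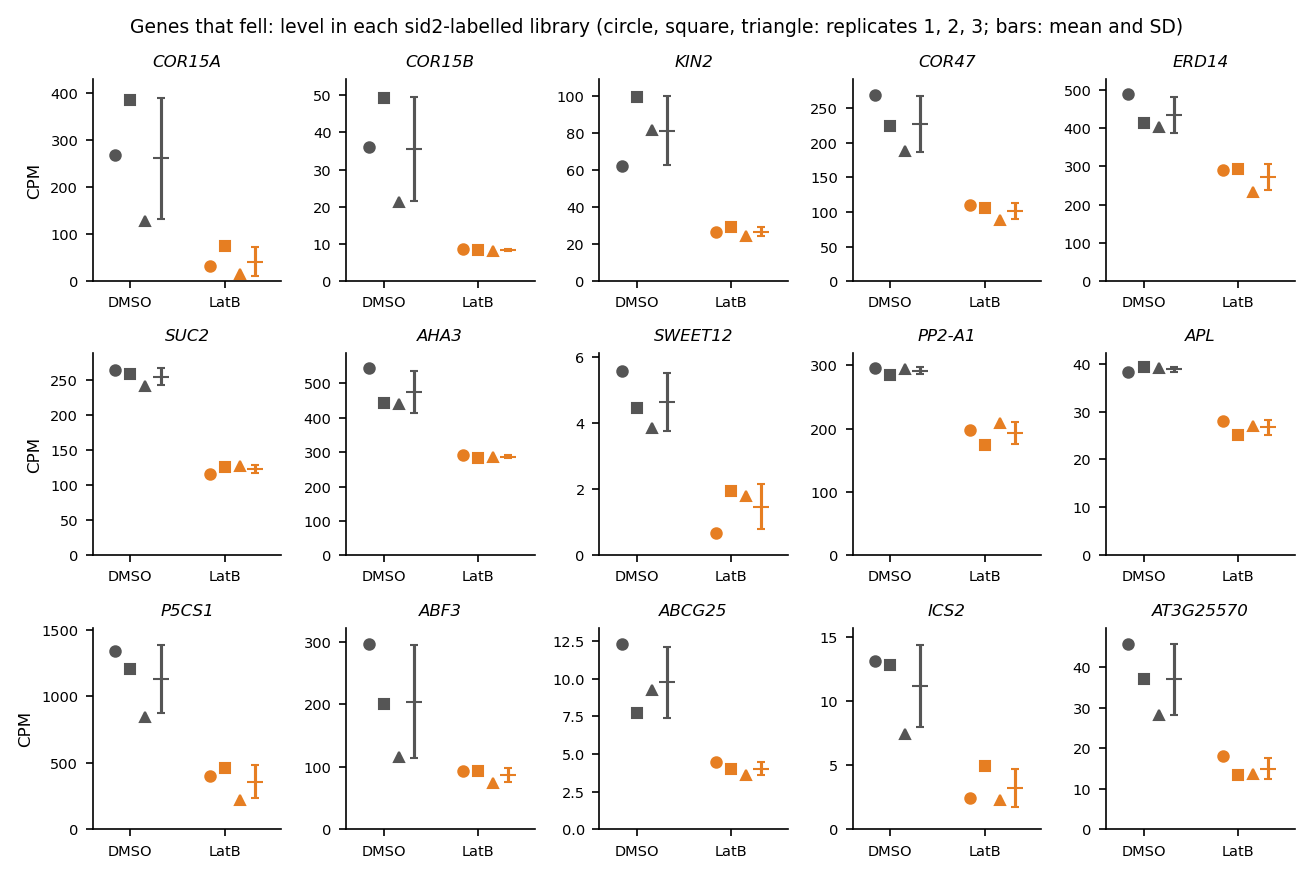
Level in CPM of 15 genes that fell, drawn as in the plot of genes that rose. The 3 treated libraries lie below the 3 controls in every panel, and in COR15A, COR15B, P5CS1, ABF3 and ICS2, among others, DMSO replicate 3 is the lowest control.

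Markers of phloem, the sugar-conducting tissue of the veins, fell in 6 of 13 cases. SUC2 (AT1G22710), for the sucrose importer of companion cells, was at 265, 259 and 242 CPM with DMSO and at 117, 126 and 128 CPM with latrunculin B, a fall of 2.07-fold (log2 -1.05 ± 0.14, adjusted p = 0.00175) in every fit. SWEET12, for the sucrose exporter that feeds it, fell 3.15-fold and AHA3, for a proton pump of companion cells, 1.66-fold. PP2-A1, for a phloem lectin, fell 1.51-fold, NAKR1 1.53-fold and APL, for a factor that sets phloem identity, 1.46-fold. The other 5 calls all ended without DMSO replicate 1 or latrunculin B replicate 1, those of AHA3, PP2-A1, NAKR1 and APL also without latrunculin B replicate 2 or 3, those of PP2-A1, NAKR1 and APL without DMSO replicate 2, and that of NAKR1 without WT latrunculin B replicate 2 or any WT DMSO replicate. Their largest adjusted p values were 0.0742 for SWEET12, 0.0642 for AHA3, 0.101 for PP2-A1, 0.162 for NAKR1 and 0.0961 for APL. SWEET11, SEOR1 and AKT2 did not pass (log2 0.12, 0.05 and -0.40).

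One of the 14 phloem markers, SULTR1;3, was at 0 in all 6 libraries. Summed over the 14 the level was 1375 to 1485 CPM with DMSO and 920 to 965 CPM with latrunculin B in the sid2-labelled libraries, and 772 to 1051 against 915 to 1054 CPM in WT. In whole leaves fewer cells of a type and less RNA per cell cannot be told apart. The sums of other cell types overlapped between treated and control sid2-labelled libraries for xylem (43.1 to 57.6 against 41.9 to 65.6 CPM), guard cells (3322 to 5126 against 4458 to 5849 CPM) and epidermis (562 to 897 against 524 to 656 CPM). Those of mesophyll did not overlap (65390 to 72379 against 77071 to 83160 CPM), with none of 10 markers called by edgeR, DESeq2 or limma and 3 lower at an unadjusted edgeR p below 0.05. All 10 mesophyll markers had a negative log2 change. The part of mesophyll RNA in the falls was not tested. With library size alone as the scaling, 3 of the 13 phloem markers were called, all lower.

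The largest changes also held genes of other kinds. AT2G26695, for a zinc finger protein, was at 34.8, 38.8 and 8.71 CPM with DMSO and at 3.28, 5.15 and 4.58 CPM with latrunculin B. It fell 6.33-fold (log2 -2.66 ± 0.43, adjusted p = 0.0042) in every fit, with DMSO replicate 3 the control nearest to the treated libraries. NUDT24, for a nudix hydrolase, fell 11.1-fold, AT2G25625 5.94-fold, AT4G36850, for a membrane protein with PQ-loop repeats, 4.53-fold, AT3G59710 3.98-fold, AT1G64360 3.92-fold, AT1G18265 3.65-fold and AT4G32480 3.50-fold. The calls of NUDT24 and AT4G32480 ended without any one of the 5 libraries other than DMSO replicate 3 (adjusted p up to 0.0733 and 0.12). That of AT3G59710 ended without latrunculin B replicate 1 (0.0706) and that of AT1G18265 without replicate 1 or 3 (up to 0.054). Those of AT2G25625, AT4G36850 and AT1G64360 ended without latrunculin B replicate 3 or DMSO replicate 2. The first also ended without latrunculin B replicate 1 or DMSO replicate 1, the second without latrunculin B replicate 1 or 2 and the last without latrunculin B replicate 2 or DMSO replicate 1 (up to 0.0918, 0.0857 and 0.0988). The log2 value of AT2G25625, -2.57, was -3.25 without latrunculin B replicate 2. AT3G15780, for an uncharacterized protein, fell 3.29-fold in every fit (log2 -1.72 ± 0.23, adjusted p = 0.00143). The expansin gene EXPA16 fell 4.42-fold, the only call among 14 expansins, and the auxin synthesis gene YUC9 3.20-fold, the only call among 15 auxin genes. DIN6, for an asparagine synthetase, fell 5.77-fold, 1 of 2 called among 9 sugar starvation genes (1 with library size alone). The call of EXPA16 ended without latrunculin B replicate 1 or 3, that of YUC9 without latrunculin B replicate 1 or 2 or DMSO replicate 1 or 3, and that of DIN6 without latrunculin B replicate 1 or 2, DMSO replicate 1 or 2 or WT latrunculin B replicate 2 (adjusted p up to 0.0821, 0.0917 and 0.136). DIN6 was at 180, 292 and 31.9 CPM in the controls, and its log2 value of -2.53 was -1.87 without DMSO replicate 2 and -3.18 without latrunculin B replicate 3. Among rises, AT4G07820, for a protein of the family of PR1, was at 0.0620, 0.154 and 0.0714 CPM with DMSO and at 2.89, 4.72 and 3.77 CPM with latrunculin B, a rise of 37.9-fold (log2 5.24 ± 0.73, adjusted p = 0.00175) in every fit. AT2G39530, for a protein of unknown function, had 1 read over the control libraries, a ratio to the pooled control reads of 60.2 with a counting interval of 10.8 to 2379, and its fitted log2 value of 5.53 was 4.76 without latrunculin B replicate 2 and 7.67 without DMSO replicate 3. AT5G46960, for an invertase inhibitor-like protein, had no control reads and 43 in the treated libraries, with a call that ended without DMSO replicate 1 (adjusted p = 0.0595). AT1G13520 rose 21.9-fold with a call that ended without any one of the 5 libraries other than DMSO replicate 3 (adjusted p up to 0.11), and its log2 value of 4.45 was 3.82 without DMSO replicate 1 and 8.63 without DMSO replicate 3. The ubiquitin ligase genes ARI12 (AT1G05880) and PUB54 (AT1G01680), the only call among 22 U-box ligases (5 with library size alone), rose 22.9-fold and 3.81-fold, the methyltransferase gene PXMT1 (AT1G66700) 32.7-fold and the small GTPase gene RABA1e (AT4G18430), without control reads, at least 14.6-fold. ARI12 had a log2 value of 5.24 in place of 4.52 without DMSO replicate 3, and PXMT1 one of 6.03 in place of 5.03 without DMSO replicate 1. The single calls among U-box ligases, expansins and auxin genes say little about those lists, as 3.53% of all genes rose and 1.21% fell.

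Many lists gave no call in the sid2-labelled leaves. None of 29 tested genes of photosynthesis and the Calvin cycle, 15 tubulins, 14 cell wall growth genes, 23 genes of jasmonate, 15 of aliphatic glucosinolates and 15 of the clock passed, and their median log2 changes were -0.25, 0.12, -0.01, 0.18, -0.06 and -0.20. Of the 29 photosynthesis genes 27 had a negative sign and 2 a positive one. In the same order the other lists had 4, 8, 9, 9 and 10 genes with a negative sign. At an unadjusted edgeR p below 0.05, 6 photosynthesis genes were lower, 1 tubulin was higher and 1 lower, 5 jasmonate genes were higher and 3 lower, 1 aliphatic glucosinolate gene and 2 clock genes were lower, and no cell wall growth gene passed. DESeq2 called 2 photosynthesis genes lower and 1 jasmonate gene in each direction, and limma called none of these 6 lists' genes. With library size alone 1 jasmonate gene was called higher. Among 29 genes for actins and their binding proteins 1 rose, 3.53% being the share of all genes: FH6, for a formin that nucleates filaments, 1.46-fold, not without any one of the 5 libraries other than DMSO replicate 3 or without WT latrunculin B replicate 1 or 2 (adjusted p up to 0.12). With library size alone 4 of the 29 were called higher. A gene that did not pass is not shown to be unchanged.

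The difference between genotypes was tested directly, as the log2 response of sid2-labelled leaves minus that of WT (the interaction). WT libraries had 4012 genes higher (22.1%) and 4115 lower (22.7%). Of the 640 genes that rose in sid2-labelled leaves 457 also rose in WT, which is 71.4% of the 640 and 11.4% of the 4012. A further 154 were not called in WT and 29 fell there. Of the 219 that fell 85 also fell in WT, 38.8% of the 219 and 2.07% of the 4115, 104 were not called and 30 rose. By the interaction 110 of the 640 had a higher response than in WT and 112 a lower one, and of the 219, 11 a higher and 90 a lower one. Among all genes tested 13.4% had a higher and 10.7% a lower response. The interaction holds the same response that chose the 640 and the 219, so these counts follow in part from that choice.

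For 59 genes the calls went in opposite directions, 29 higher and 30 lower in sid2-labelled leaves. Their interaction is the difference of those same responses, so that it passed for all 59 adds nothing to the choice. AT4G01390, for a TRAF-like protein, fell from 13.1, 8.79 and 0.285 CPM to 0, 0 and 0.109 CPM, where DMSO replicate 3 was near the treated libraries. With 2 reads over the treated libraries the ratio of the control mean to the pooled treated reads per depth was 211 with a counting interval of 58.4 to 1743. In WT it rose from 0, 0 and 0.0925 CPM to 9.18, 6.67 and 14.0 CPM, from 2 control reads, a ratio to the pooled control reads per depth of 275 with an interval of 76.1 to 2271. The fitted log2 value in sid2-labelled leaves, -7.46, was -6.75 without DMSO replicate 1 and -10.05 without latrunculin B replicate 3. The next genes, PIP1;5 aside, were chosen after their values were seen. AT3G25570, for an S-adenosylmethionine decarboxylase, fell from 45.7, 36.9 and 28.2 CPM to 18.0, 13.4 and 13.6 CPM in the sid2-labelled leaves, and rose in WT (log2 -1.30 against 0.86, adjusted p of the difference 0.000214). ADC2, for arginine decarboxylase, did likewise (-0.70 against 1.80), with a call in sid2-labelled leaves that ended without latrunculin B replicate 1 or 3 or DMSO replicate 1 or 2 (adjusted p up to 0.101). The glutamate dehydrogenase gene GDH2 followed (-0.97 against 1.81), its call lost without any one of the 5 libraries other than DMSO replicate 3 or without WT DMSO replicate 2 (up to 0.15). In the other direction the aquaporin gene PIP1;5 rose 1.74-fold and fell in WT (log2 0.80 against -2.05), its call lost without any library except sid2 DMSO replicate 2 and WT DMSO replicates 2 and 3 (up to 0.181). The major facilitator genes AT4G34950 and AT2G16660 rose 3.54-fold and 5.35-fold and fell in WT (log2 -4.04 and -3.88). Their log2 values in sid2-labelled leaves, 1.83 and 2.42, were 2.69 and 3.39 without DMSO replicate 3, and their calls ended without latrunculin B replicate 1 or 3 or DMSO replicate 2, that of AT4G34950 also without DMSO replicate 1 (up to 0.118 and 0.0858).

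**Figure D5:**
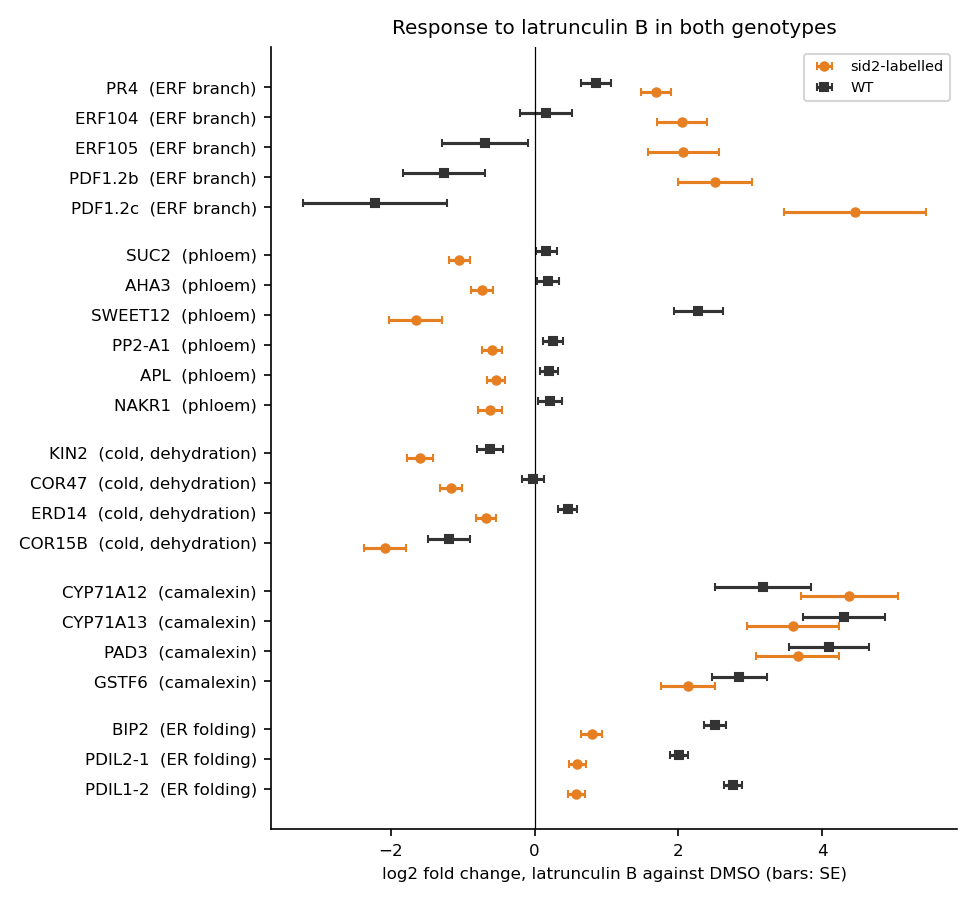
Log2 fold change of latrunculin B against DMSO with its SE in sid2-labelled leaves (orange circles) and in WT (black squares), for chosen genes of 5 lists, named at the left. All were called in sid2-labelled leaves. The phloem, ERF branch and ER folding genes drawn also have an interaction call, and so do KIN2, COR47 and ERD14. Their positions therefore follow from the choice and do not stand for the lists. The ERF branch genes lie further right in sid2-labelled leaves and the phloem genes further left, the SE bars of the 4 camalexin genes overlap, and the ER folding genes lie further right in WT.

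The interaction was also counted by list. Of all genes 13.4% had a higher response in sid2-labelled leaves and 10.7% a lower one. The response was higher for 25 of 29 photosynthesis genes, 11 of 14 cell wall growth genes, 10 of 15 tubulins, 7 of 9 epidermis markers and 7 of 10 mesophyll markers, and lower for none of them. No gene of these 5 lists was called in sid2-labelled leaves, and their median log2 changes in WT were -1.02, -1.73, -1.24, -1.05 and -1.14. Of the 14 ERF branch genes 8 had a higher response in sid2-labelled leaves and 1 a lower one. Of the 13 phloem markers 6 had a lower response, the same 6 that fell, and none a higher one. Their fall is itself part of the interaction, so this match follows in part from it. Of the 9 camalexin genes 1 had a lower response and none a higher one. The interaction of CYP71A12, CYP71A13 and PAD3 did not pass (log2 4.38 against 3.18, 3.59 against 4.31 and 3.66 against 4.10 in WT), which does not show that the responses were equal. Of the 16 folding genes 15 had a lower response and none a higher one, of the 38 cysteine-rich kinase genes 14 and 2, and of the 47 receptor-like protein genes 18 and 1. These 3 lists had positive medians in both genotypes, smaller in sid2-labelled leaves (for example 0.41 against 2.07 for folding genes and 0.43 against 1.33 for the kinases).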

How the data were processed

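RNA of 12 leaf libraries was prepared with a directional kit, per the labels. Trimmomatic, Salmon 1.3.0 and TAIR10 are named in the submitters' processing notes. The authors deposited estimated counts and TPM per transcript, and 99.99% of the 32875 deposited transcript lengths are multiples of 3, so they are coding lengths. Estimated counts were summed per locus and rounded, 18149 of 27313 genes passed the expression filter of edgeR, and 4 group means were fitted over all 12 libraries with TMM scaling in edgeR 4.0.16 (R 4.3.3), with Benjamini-Hochberg adjustment. The deposited TPM values entered limma 3.58.1 as log2(TPM + 1). DESeq2 1.42.0, other scalings, no filter, the 6 sid2 libraries alone and leaving out each library were the alternatives. Genes to be named were ICS1, up to 5 called genes per list, and markers of other cell types. To these came the 15 largest rises and 15 largest falls among called genes whose libraries did not overlap. Their mean level over all 12 libraries, WT included, had to reach a log2 CPM of 1. Several rises, such as WRKY63, AT5G46960, RABA1e and F6'H1, reached it only through treated WT. Their means were 0.706, 0.765, 1.01 and 1.07 CPM in treated sid2-labelled leaves and 10.1, 9.06, 8.68 and 20.6 CPM in treated WT. A further 23 genes and the non-passing members of short lists were chosen after their values were seen. Members and lists were chosen with earlier results of these data known. Motif windows come from RefSeq TAIR10.1, where 96.4% of coding lengths matched. Not every gene under this rule is described, and called genes beyond it are counted only.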

Additional observations from a re-analysis of the deposited data

Results flagged for a closer look

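For 65 named genes the response to latrunculin B differed between sid2-labelled and WT leaves by the interaction term of edgeR with an adjusted p below 0.05. Values are the log2 response in sid2-labelled leaves minus that in WT. The response was higher in sid2-labelled leaves for 18 genes. The values were DIN11 (9.81), PDF1.2c (6.68), ORA59 (6.54), AT2G16660 (6.30), AT4G34950 (5.87), MPL1 (4.68), NAC004 (3.97), PDF1.2b (3.77), PDF1.2 (3.11), ERF6 (3.03), PIP1;5 (2.85), AT4G07820 (2.83), ERF105 (2.76), PYL4 (2.14), ERF104 (1.89), ABCG42 (1.15), PR4 (0.84), CRK2 (0.63). It was lower for 47 genes. They began with AT4G01390 (-15.33), AT2G26695 (-4.97), RLP7 (-4.35), AT1G64360 (-4.34), SWEET12 (-3.93), NUDT24 (-3.34), GLR1.2 (-2.94), WAK3 (-2.90), AT2G25625 (-2.80), GDH2 (-2.78), ICS1 (-2.73), PNP-A (-2.51), ADC2 (-2.50), NHL10 (-2.49), JUB1 (-2.37), RLP20 (-2.27). Next came CRK36 (-2.23), PDIL1-2 (-2.18), AT3G25570 (-2.16), CRK7 (-2.14), GSTU10 (-2.11), PUB54 (-1.80), CRK13 (-1.76), BIP2 (-1.72), ERDJ3A (-1.63), ABF3 (-1.51), AT3G15780 (-1.49), ABCG25 (-1.44), PDIL2-1 (-1.41), CRK38 (-1.36), CAT1 (-1.35), SUC2 (-1.21). The remaining genes were BZIP60 (-1.19), STP13 (-1.19), ERD14 (-1.14), COR47 (-1.14), NAC102 (-1.04), KIN2 (-0.98), GLR2.7 (-0.97), AHA3 (-0.92), PP2-A1 (-0.85), NAKR1 (-0.83), PIP2;2 (-0.82), PBL1 (-0.79), APL (-0.75), VAMP722 (-0.72), CRK9 (-0.70). ICS1, PDF1.2 and ERF6 were not called in sid2-labelled leaves themselves. The values of AT4G01390, ORA59, NAC004 and DIN11 rest on at least 1 group with 3 reads or fewer, so their sizes come from the fit and are not measured. Groups of 3 libraries were not tested for single outlying samples.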

How the results depend on the processing

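The 640 rises became 1346 with library size alone as the scaling, 270 with the 6 sid2 libraries alone, 1082 with DESeq2, 975 with limma on log2 TPM, 404 with a log2 change of at least 1, and 308 to 1009 with 1 library left out. The 219 falls became 127, 88, 525, 107, 72 and 56 to 463 in the same order. Library size alone shifted the median log2 change of all genes from -0.004 to 0.144. The 1948 genes with a lower response than in WT became 2975 with library size alone, 3583 with limma and 1133 with a log2 change of at least 1. RLE scaling, no filter on low counts and leaving out organelle genes kept both counts of the sid2-labelled leaves within 1.5 times. Signs turned for ICS1 with library size alone (0.0079), and for genes near 1 CPM with 1 library left out: CBF1 ranged from -0.54 to 1.16, CBF2 from -1.07 to 0.44 and CBF3 from -0.46 to 0.42. The cause was not tested. Of the named genes that were called and that each fit could test, 75 of 154 lost their call with the 6 sid2 libraries alone, 27 of 160 with limma, 8 of 162 with library size alone and 4 of 162 with DESeq2. No paired analysis was possible because the titles of the groups share no replicate numbers. With 3 libraries a group, a gene that did not pass may have changed, and an exact permutation test of 3 against 3 cannot go below 0.1.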
